A study of Rattus norvegicus with 46 samples.

Results

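The 40 genes described here encode the digestive enzymes, membrane proteins and proton pump of the lysosome, with the regulators Tfeb and Mcoln1. They were chosen by name, and all 40 were found among the 30045 genes of the deposited tables, in 4 functional groups: 11 proteases, 14 glycosidases and lipid enzymes with their cofactors, 9 membrane proteins and regulators, and 6 subunits of the vacuolar proton pump (V-ATPase). The question asked of the data was how silica, against air, moved these genes in lung and in blood, early and late. Male Fischer 344 rats, aged animals by the series' title, breathed filtered air or crystalline silica dust (Min-U-Sil 5) at 15 mg/m3 in whole-body chambers, 6 hours a day for 5 days. Lung and whole blood were taken 1 day or 6 months after exposure, which gives 8 groups and 46 samples: 6 in each, apart from 4 air lungs at 6 months. No genetic change or other agent is named for any group, the controls differ from the exposed rats by the dust alone as far as the labels say, and the exact age is not given.

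Lysosomes are the acid compartments in which cells break down proteins, lipids, sugars and swallowed particles. Acid is made by the V-ATPase, which needs a membrane sector and a cytosolic sector; cathepsins cut proteins, glycosidases and lipases take apart sugar chains and lipids, and glycosylated membrane proteins line and protect the compartment. In lung, alveolar macrophages carry inhaled mineral dust in their lysosomes, and type 2 epithelial cells store surfactant in lysosome-related lamellar bodies. The transcription factor TFEB can raise many lysosomal genes together through a short element, named CLEAR, close to their start sites.

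The promoters of the set were searched for that element. RefSeq promoter windows (build GRCr8, 300 bases, from 250 before to 50 after the start site) matched 33 of the 40 genes by symbol. The 10-letter consensus GTCACGTGAC, read on both strands, stood in 0 of the 33 windows and in 0.233% of all 33469 windows. With up to 1 mismatch it stood in 7 of the 33 (21.2%) and in 1.57% of all windows. The shorter TCACGTGA, which lies inside the consensus, stood in 4 of the 33 (12.1%; all windows 0.777%), and the E-box CACGTG, which lies inside both, in 8 (24.2%; all windows 6.42%). Among 69 windows of the other lysosomal genes described below, the consensus stood in 3 (4.35%), and with up to 1 mismatch in 10 (14.5%). A match is a description of letters and not a measured binding site. For 6 of the 7 near matches the stretch lies before the start site and is shown 5′ to 3′ on the gene's strand, with the 10 bases that best match the element in capitals. Where matches tie, the most 5′ is in capitals: the Atp6v0d1 stretch holds another run, in small letters, that also differs by 1 base.
Ctsd (cathepsin D, chr1:206968822-206968853, minus strand): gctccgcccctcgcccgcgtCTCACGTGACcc
Ctsl (cathepsin L, chr17:769948-769997, plus strand): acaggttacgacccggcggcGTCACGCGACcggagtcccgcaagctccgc
Glb1 (beta-galactosidase, chr8:122963596-122963645, plus strand): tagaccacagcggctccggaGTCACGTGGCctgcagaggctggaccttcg
Lamp1 (lysosomal membrane protein, chr16:83075186-83075235, minus strand): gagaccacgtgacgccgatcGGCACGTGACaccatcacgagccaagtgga
Atp6v0d1 (V-ATPase membrane sector, chr19:50357273-50357322, minus strand): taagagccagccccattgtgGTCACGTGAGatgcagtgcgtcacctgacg
Atp6v1a (V-ATPase cytosolic sector, chr11:70067458-70067501, plus strand): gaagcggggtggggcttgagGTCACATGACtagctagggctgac
The 7 genes with a near match, Mcoln1 included, are read beside the lung results that follow: 3 of them rose in lung at 1 day and 1 at 6 months, against 14 and 15 of the other 26 genes with a window, of which 1 and 2 fell.

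Lung samples held 13.4 M to 24.6 M estimated counts and blood samples 10.6 M to 17.5 M. Levels are CPM (counts in each M of the library) after TMM scaling within each tissue and time, and each table was scaled and tested on its own. In lung, 5 pairs of samples of the same group differed by little more than counting noise (air 02 and 07, air 04 and 08, air 19 and 24, air 20 and 25, silica 30 and 31), and each pair was averaged and counted as 1 library. The lung libraries counted are then 4 (air) and 6 (silica) for 1 day and 2 (air) and 5 (silica) for 6 months, and each blood group keeps its 6. Nothing in the labels says that samples came from separate animals, and a p-value here reflects only how far the deposited samples differ, which may be technical. A gene was called where edgeR's quasi-likelihood F test gave a Benjamini-Hochberg adjusted p under 0.05 over all genes of that comparison. The tissues fit their labels: the airway secretory gene Scgb1a1 was at 0 CPM in all 24 blood libraries and at 2111 CPM or above in every lung library. Some libraries stand apart. The 2 air lungs of 6 months had 2391 and 2762 CPM summed over 8 markers of natural killer cells and large granular lymphocytes, against 173 to 813 CPM in the other lungs. In blood, air library 25 of 6 months had the most of these markers (1498 CPM, other bloods 126 to 561), and silica library 11 of 1 day lay outside its group for many of the 40 genes.

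One day after silica, 23 of the 40 lysosomal genes rose in lung, 1 fell and 16 did not pass the test. Over all 15724 genes tested, 11.7% were called, 7.61% as higher and 4.07% as lower. The median log2 fold change of the 40 was 0.20, against 0.00 over all genes, and the changes of most genes were small: 14 of the 23 rises were below 0.4 on the log2 scale. In 24 of the 40 every silica library lay above every air library, and in 1 every silica library lay below (7.4% and 4.02% of all genes). By group, 8 of 11 proteases, 6 of 14 glycosidases and lipid enzymes, 3 of 9 membrane proteins and regulators, and all 6 V-ATPase subunits rose, with medians of 0.26, 0.23, 0.13 and 0.25. The plot of effects by gene shows these groups for both tissues and times.

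**Figure D1:**
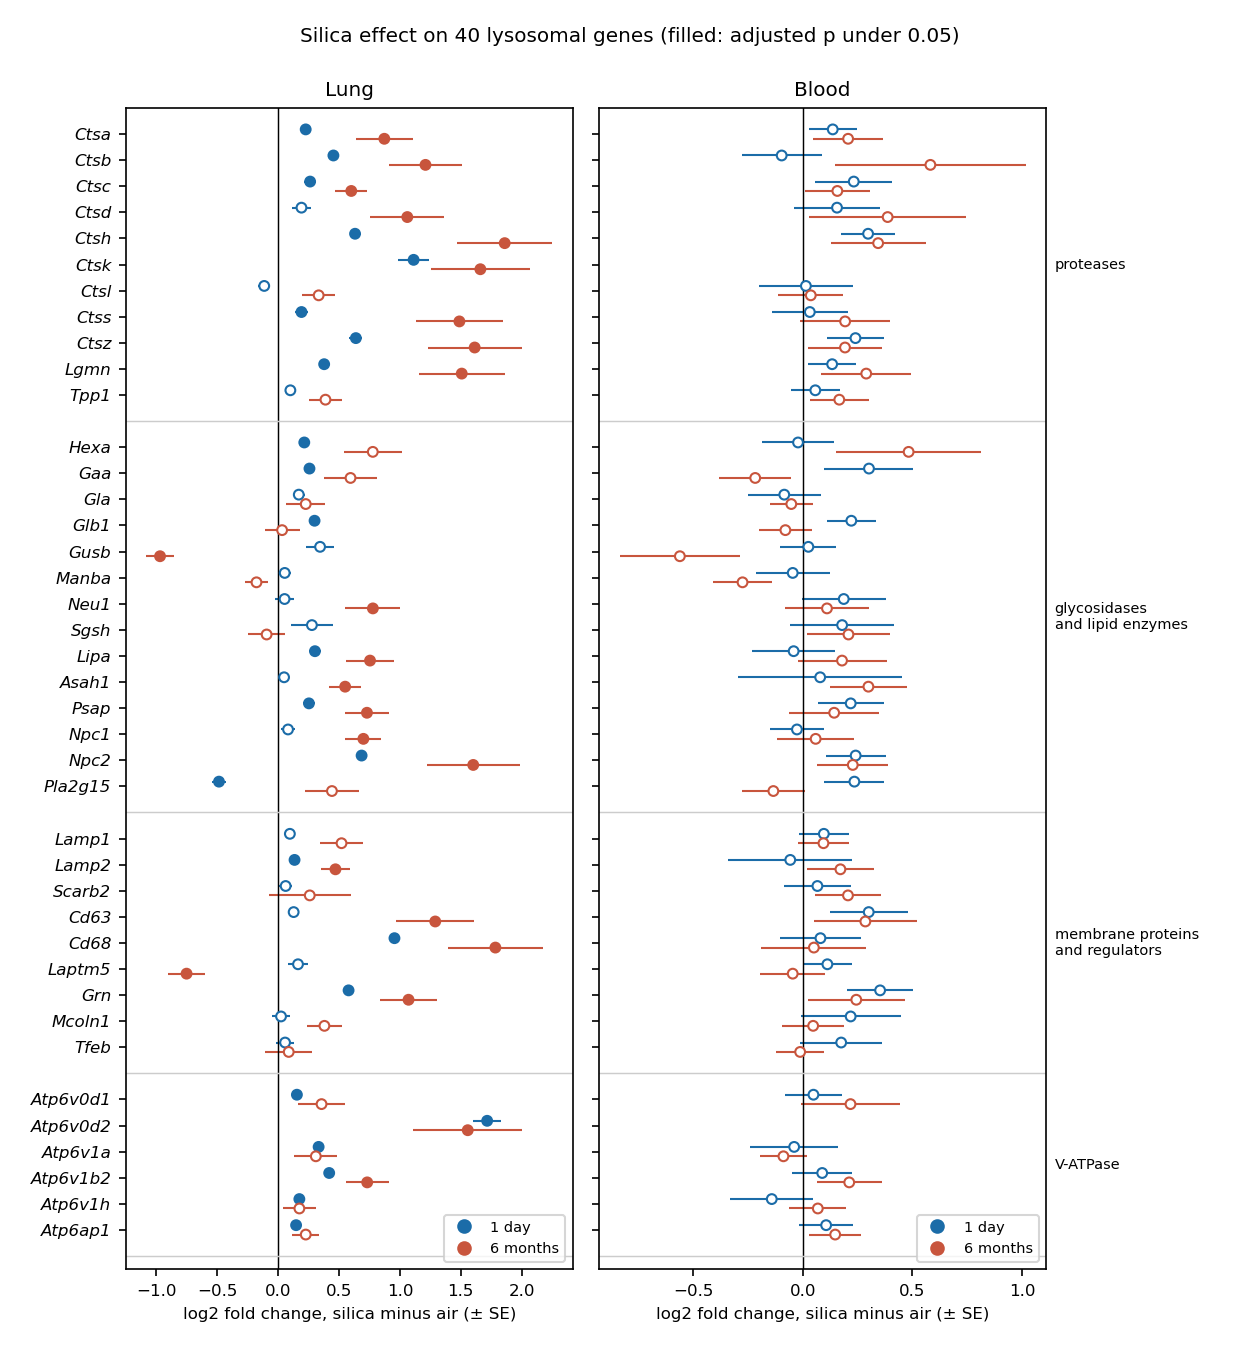
Log2 fold change, silica minus air, with its standard error for the 40 genes in lung (left) and blood (right), 1 day in blue and 6 months in red, and filled points where the adjusted p was under 0.05. The lung points lie mostly right of 0, with 24 filled at 1 day and 23 at 6 months, and no blood point is filled.

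The largest change at 1 day belonged to the proton pump. Atp6v0d2, the d2 subunit of the membrane sector, which osteoclasts and some macrophages use, was at 4.04, 5.41, 6.13 and 6.63 CPM in the 4 air lungs and at 17.2 (lowest), 18.4 (median) and 18.9 (highest) CPM in the 6 silica lungs. The groups did not overlap, and the gene rose by 1.72 ± 0.11 (log2 fold change ± SE, here and below; adjusted p = 7.07e-07). Its housekeeping counterpart Atp6v0d1 was at 142, 145, 146 and 148 CPM in air and at 154 (lowest), 163 (median) and 167 (highest) CPM in silica lungs. It rose by 0.15 ± 0.04 (adjusted p = 0.0175). The cytosolic sector's catalytic A subunit gene Atp6v1a rose from 168 ± 3.5 CPM (SD, n = 4) to 212 ± 7.14 (n = 6). Every air lung (165 to 173 CPM) was below every silica lung (199 to 219 CPM). Atp6v1b2, the B2 subunit that binds nucleotide with A, was at 117, 119, 119 and 119 CPM in air and at 149.7 (lowest), 155 (median) and 168 (highest) CPM in silica lungs, again with no overlap. Atp6v1h, the regulatory H subunit, rose by 0.17 ± 0.05 and the accessory subunit Atp6ap1 by 0.15 ± 0.03. Among these small rises, those of Atp6v0d1 and Atp6v1h lost their call in 4 and 6 of the 10 fits that left out 1 library, with adjusted p up to 0.0689 without air library 05 and 0.0899 without air library 02-07.

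Among the proteases, cathepsin K (Ctsk), a strong collagenase best known from osteoclasts, changed most. It was at 17.8, 19.2, 20.5 and 25.4 CPM in air lungs and at 38.4 (lowest), 43.8 (median) and 52.4 (highest) CPM in silica lungs, a rise of 1.11 ± 0.12 (adjusted p = 0.000182). Cathepsin Z (Ctsz), a carboxypeptidase, was at 110.1, 115, 118 and 121 CPM in air and at 168 (lowest), 178 (median) and 198 (highest) CPM in silica lungs. Cathepsin H (Ctsh), an aminopeptidase that also processes surfactant protein, was at 657, 669.5, 689 and 699 CPM in air and at 988 (lowest), 1056 (median) and 1115 (highest) CPM in silica lungs. In none of these 3 did the groups overlap, and Ctsz and Ctsh rose by 0.64 ± 0.05 and 0.63 ± 0.04. Cathepsin B (Ctsb) rose by 0.45 ± 0.04, the asparaginyl endopeptidase legumain (Lgmn) by 0.38 ± 0.05, cathepsin C (Ctsc), which activates granule proteases, by 0.26 ± 0.05, the protective protein Ctsa by 0.23 ± 0.04 and cathepsin S (Ctss), which trims the MHC class II invariant chain, by 0.19 ± 0.05. Ctss lost its call in 8 of the 10 fits without 1 library (adjusted p up to 0.0864 without air library 04-08). The 3 proteases that did not pass were cathepsin D (Ctsd, 0.19 ± 0.08), the tripeptidyl peptidase Tpp1 (0.10 ± 0.04) and cathepsin L (Ctsl, -0.11 ± 0.05).

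Of the glycosidases and lipid enzymes, the cholesterol-binding cofactor Npc2 rose most. It was at 604, 604, 615 and 662 CPM in air lungs and at 953 (lowest), 1002 (median) and 1019 (highest) CPM in silica lungs, a rise of 0.68 ± 0.04 (adjusted p = 3.78e-07). Its membrane partner Npc1 was at 106 ± 4.47 against 112 ± 8.73 CPM and did not pass (0.08 ± 0.06). The acid lipase gene Lipa was at 179, 184, 189 and 197 CPM in air and at 214 (lowest), 234 (median) and 243 (highest) CPM in silica lungs, without overlap, and rose by 0.30 ± 0.05. Further rises were those of beta-galactosidase (Glb1, 0.30 ± 0.04), the acid alpha-glucosidase Gaa (0.26 ± 0.04), the saposin precursor Psap (0.25 ± 0.05) and the hexosaminidase subunit Hexa (0.21 ± 0.04). The single fall was that of Pla2g15, the lysosomal phospholipase A2 of alveolar macrophages, which degrades phospholipids such as those of surfactant. It was at 114, 126, 128 and 140.1 CPM in the air lungs and at 82.2 (lowest), 91.3 (median) and 96.3 (highest) CPM in the silica lungs, with no overlap, and changed by -0.49 ± 0.06 (adjusted p = 0.000115). Asah1, Gla, Gusb, Manba, Neu1, Npc1 and Sgsh did not pass, with values of 0.05 to 0.34.

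In the membrane group, Cd68, the heavily glycosylated macrophage lysosome protein, was at 64.3, 68.7, 70.3 and 75.4 CPM in air lungs and at 128 (lowest), 135 (median) and 143 (highest) CPM in silica lungs. It rose by 0.95 ± 0.05 (adjusted p = 4.08e-08). Progranulin (Grn), a lumenal glycoprotein that is cut into granulins, was at 246, 247, 248 and 254 CPM in air and at 343 (lowest), 368 (median) and 404 (highest) CPM in silica lungs, a rise of 0.58 ± 0.05. The major membrane glycoprotein Lamp2 was at 352, 354, 359.7 and 368 CPM in air and at 375 (lowest), 395 (median) and 414 (highest) CPM in silica lungs. Its small rise (0.13 ± 0.04, adjusted p = 0.0395) was lost in 9 of the 10 fits without 1 library, with adjusted p up to 0.146 without air library 02-07. Lamp1 (0.10 ± 0.04), the tetraspanin Cd63 (0.13 ± 0.05), the haematopoietic protein Laptm5 (0.16 ± 0.08) and Scarb2 (0.06 ± 0.05), the receptor that carries glucocerebrosidase to lysosomes, did not pass. Tfeb itself was at 27, 27.6, 29.9 and 30.3 CPM in air and at 25.5 (lowest), 30.1 (median) and 34.3 (highest) CPM in silica lungs (0.06 ± 0.08), and the calcium channel gene Mcoln1 was at 22, 23.4, 23.7 and 29.2 CPM and at 23.9 (lowest), 25 (median) and 25.7 (highest) CPM (0.02 ± 0.07). Both overlapped between the groups.

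Among 90 other lysosomal genes in the tables, 26 of the 89 tested rose and 0 fell at 1 day (median 0.09), with edgeR's quasi-likelihood test. The largest rises were those of the channel Mcoln2 (0.54 ± 0.08), Lamp3, a lamellar body protein of type 2 cells (0.54 ± 0.07), and the proton pump subunit Atp6v0a1 (0.46 ± 0.06). Cell markers moved at the same time. Of 8 neutrophil markers 5 rose and 0 fell, with a summed level of 182 to 255 CPM in air and 513 to 781 CPM in silica lungs, and of 7 type 2 cell markers 5 rose, with 21442 to 23902 CPM in air and 26761 to 30372 CPM in silica lungs. Of 8 alveolar macrophage markers 3 rose (Msr1, Itgax, Siglec5) and 2 fell (Krt79, Pparg), with a sum of 500.3 to 553 CPM in air and 562 to 626 CPM in silica lungs, and Marco was at or near 0 in all lungs of 1 day. In bulk tissue, more or fewer cells of a type and more or less RNA per cell cannot be told apart, and the part of these cells in the changes above was not tested. Of the giant cell and osteoclast markers, 1 of 4 tested rose (Oscar), while Dcstamp and Calcr were below 1 CPM in every lung and Acp5 did not pass (50.8 ± 4.17 against 50.3 ± 6.73 CPM). One limit concerns the spread: with the 6-month lungs in the same fit, which share 1 estimate of it, 8 of the 40 were called (594 of all genes), namely Atp6v0d2, Ctsk, Cd68, Grn, Atp6v1b2, Glb1, Ctsc and Pla2g15.

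Most of the lysosomal genes that changed in lung at 6 months rose as well. Of the 40 genes 21 rose and 2 fell, against 9.52% of all 16265 genes tested called as higher and 10.1% called as lower (19.6% in either direction). The median log2 fold change was 0.60 for the 40 and 0.00 for all genes. Every silica library lay above every air library for 29 of the 40 and below for 3, but with 2 air libraries this was so for 21.2% and 23.7% of all genes. The count rests on single libraries: it was 0 without air library 19-24, 1 without air library 20-25, and 14, 7 and 6 without silica libraries 32, 34 and 35. Calls over all genes fell as well, from 3190 to 57, 1063, 2170, 1756 and 1749 in the same order. With 1 air library left, that library is assumed to vary as the silica lungs do. By group, 9 of 11 proteases rose (median 1.21), 6 of 14 glycosidases and lipid enzymes rose and 1 fell (0.57), 4 of 9 membrane proteins and regulators rose and 1 fell (0.47), and 2 of 6 V-ATPase subunits rose (0.33).

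The proteases led at this time. Ctsh was at 413 and 538 CPM in the 2 air lungs and at 982, 1353, 1754, 1869.8 and 2670.2 CPM in the 5 silica lungs, a rise of 1.86 ± 0.39 (adjusted p = 0.0174). Ctsk was at 18.1 and 22.3 CPM in air and at 29.9, 52, 72, 76.9 and 88.5 CPM in silica lungs (1.66 ± 0.41, adjusted p = 0.0284). Ctsz was at 75.5 and 94.3 CPM in air and at 146, 198, 272, 275 and 408 CPM in silica lungs (1.61 ± 0.39). In each the lowest silica lung lay above the higher air lung, and the silica lungs spread widely among themselves. Ctss was at 64.5 and 83 CPM in air and at 115, 174, 213, 228 and 305 CPM in silica lungs, and rose by 1.49 ± 0.36. Lgmn rose by 1.51 ± 0.35, Ctsb by 1.21 ± 0.30, Ctsd by 1.06 ± 0.30, Ctsa by 0.87 ± 0.23 and Ctsc by 0.60 ± 0.13. Tpp1 (0.39 ± 0.13, adjusted p = 0.0832) and Ctsl (0.33 ± 0.13, adjusted p = 0.123) did not pass.

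**Figure D2:**
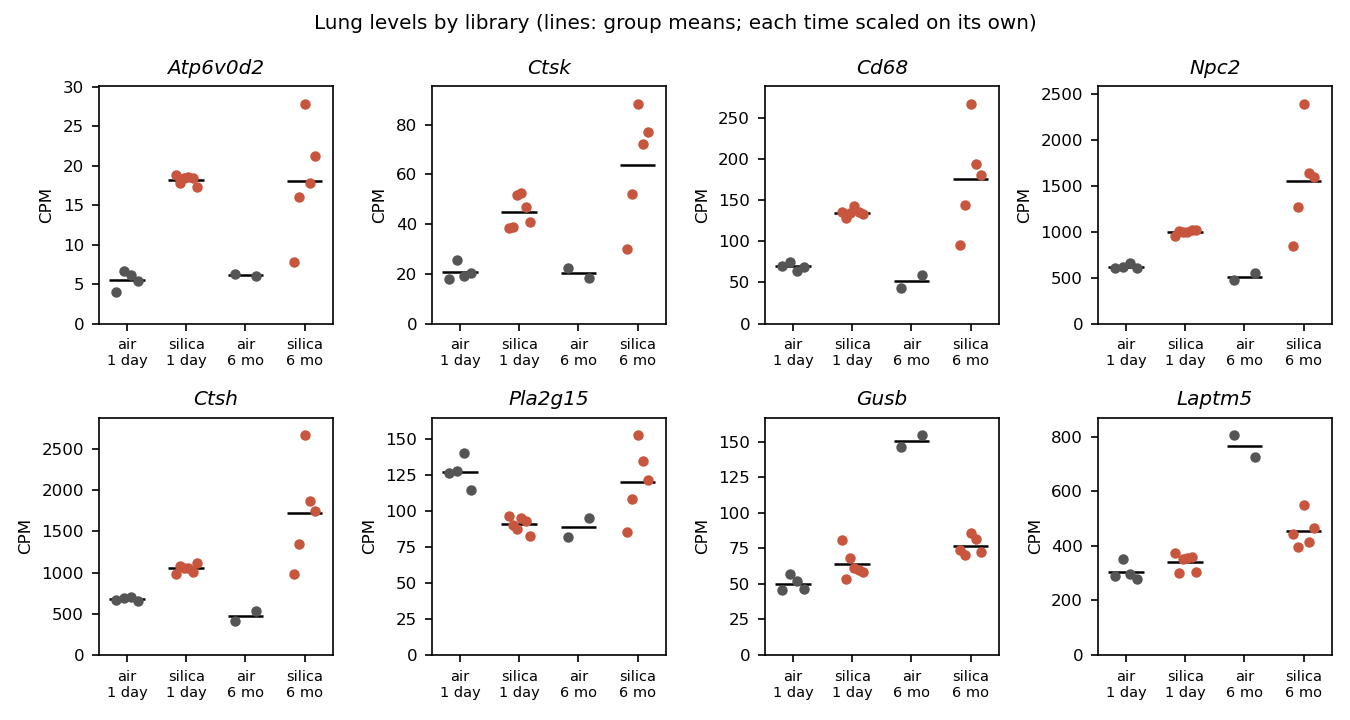
CPM of 8 lysosomal genes in each lung library (points) with group means (lines), air in grey and silica in red, 1 day and 6 months after exposure, scaled within each time. Atp6v0d2, Ctsk, Cd68, Npc2 and Ctsh are higher in silica lungs at both times, Pla2g15 is lower at 1 day, and Gusb and Laptm5 are highest in the 2 air lungs of 6 months.

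Among the lipid enzymes, Npc2 was at 475 and 546 CPM in air and at 842, 1275, 1593, 1640.5 and 2398 CPM in silica lungs and rose by 1.60 ± 0.38. The sialidase gene Neu1, which did not pass at 1 day, was at 18.9 and 20.7 CPM in air and at 24.6, 31.2, 32.3, 37.2 and 44.8 CPM in silica lungs, a rise of 0.78 ± 0.23 (adjusted p = 0.0479). Lipa (0.75 ± 0.20), Psap (0.73 ± 0.18), Npc1 (0.70 ± 0.15) and the acid ceramidase Asah1 (0.55 ± 0.13) also rose. Hexa (0.78 ± 0.24, adjusted p = 0.0566) and Gaa (0.59 ± 0.22) did not pass, although no silica lung lay as low as an air lung. Pla2g15, which had fallen at 1 day, was at 88.5 ± 9.0 CPM in air and 120.2 ± 25.5 in silica lungs and did not pass (0.44 ± 0.22). Beta-glucuronidase (Gusb), which removes glucuronic acid from sugar chains, went the other way: it was at 146 and 155 CPM in the 2 air lungs and at 70.1, 72.8, 73.6, 81.8 and 85.8 CPM in the 5 silica lungs, a change of -0.97 ± 0.11 (adjusted p = 0.00503). Gla, Glb1, Manba and Sgsh did not pass, with values from -0.18 (Manba) to 0.23 (Gla).

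Cd68 was at 43.5 and 59 CPM in air and at 95.5, 144, 181, 194 and 268 CPM in silica lungs, and rose by 1.78 ± 0.39 (adjusted p = 0.0193). Cd63 was at 115 and 128 CPM in air and at 193, 238, 279.8, 328 and 448 CPM in silica lungs (1.29 ± 0.32), and Grn was at 184 and 238 CPM and at 314, 427, 429.8, 488 and 553 CPM (1.07 ± 0.23). Lamp2 also rose (0.47 ± 0.12), while Lamp1 (0.52 ± 0.18, adjusted p = 0.0794) and Scarb2 (0.26 ± 0.33) did not pass. Laptm5, a protein of blood cell lysosomes, fell: it was at 725 and 807 CPM in air and at 396, 416, 445, 467 and 549 CPM in silica lungs, a change of -0.75 ± 0.15 (adjusted p = 0.0142). Tfeb was at 35 and 36.3 CPM in air and at 31.8, 33.5, 33.9, 39.7 and 50.5 CPM in silica lungs, with overlap (0.09 ± 0.19). Mcoln1 was at 18.2 and 19.6 CPM in air and at 21.5, 22.3, 24.2, 27.3 and 27.8 CPM in silica lungs and did not pass (0.38 ± 0.15, adjusted p = 0.109). In the proton pump, Atp6v0d2 was at 6.06 and 6.23 CPM in air and at 7.74, 16, 17.7, 21.2 and 27.8 CPM in silica lungs and rose by 1.56 ± 0.45 (adjusted p = 0.0463). Atp6v1b2 was at 111 and 120.2 CPM and at 148, 179, 203, 203 and 227 CPM and rose by 0.73 ± 0.18. Atp6v0d1 was at 144 and 149 CPM in air and at 153, 158, 181, 201 and 246 CPM in silica lungs and did not pass (0.36 ± 0.20), nor did Atp6v1a, Atp6v1h and Atp6ap1 (0.17 to 0.31).

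Gusb and Laptm5 were high where the cytotoxic lymphocyte markers were high. Of the 8 markers 7 fell at 6 months, with a sum of 2391 to 2762 CPM in air and 263 to 813 CPM in silica lungs, and the T and NK cell gene Cd8a (540 ± 138 against 92.2 ± 63.9 CPM) was also higher in the 2 air lungs. On 1 scale for all 4 lung groups, Gusb was at 49.7 ± 5.22 CPM in air lungs of 1 day (SD, n = 4), 62.9 ± 9.74 in silica lungs of 1 day (n = 6), 155 ± 4.84 in air lungs of 6 months (n = 2) and 77.6 ± 6.58 in silica lungs of 6 months (n = 5). Laptm5 was at 302 ± 33.8, 337 ± 31.1, 791 ± 65.1 and 459.6 ± 59.7 CPM in the same order. Both were thus higher in late silica lungs than in early air lungs, and highest in the late air lungs; these steps between times were not tested. The part of the lymphocyte markers in these falls was not tested either, and with 2 air libraries it cannot be told apart from the group. The call of Gusb held in 6 of the 7 fits without 1 library (adjusted p = 0.064 without air library 19-24) and that of Laptm5 in 5 of 7, lost without either air library (adjusted p up to 0.175).

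**Figure D3:**
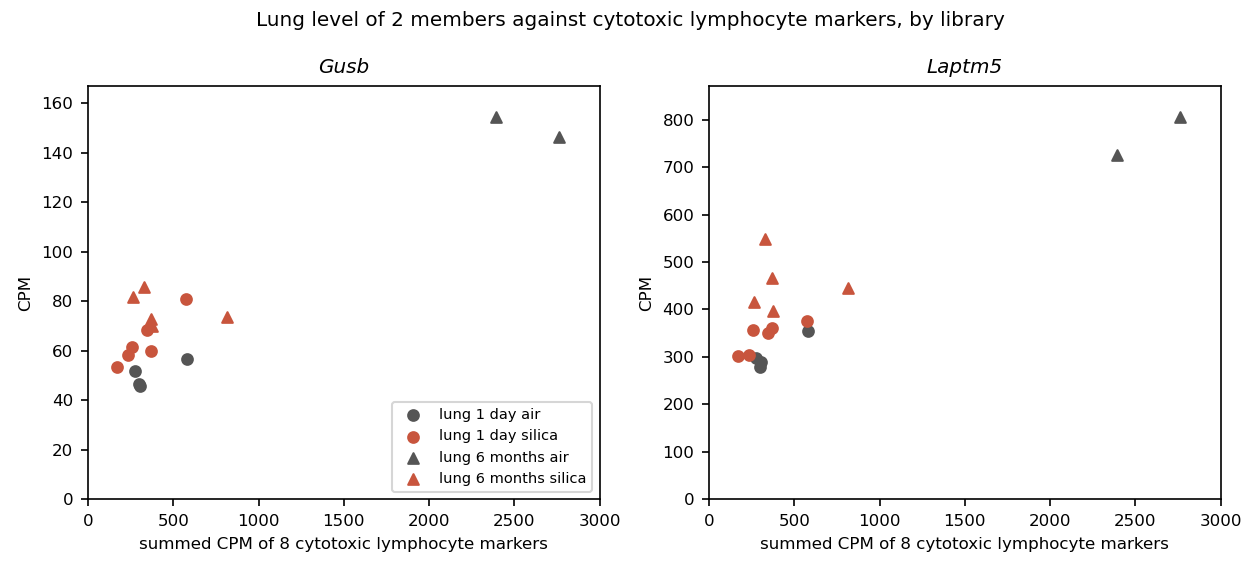
CPM of Gusb (left) and Laptm5 (right) in each lung library against the summed CPM of 8 cytotoxic lymphocyte markers, air in grey, silica in red, circles for 1 day and triangles for 6 months. The 2 air lungs of 6 months stand apart at the upper right, with 2391 and 2762 CPM of the markers, and the other lungs lie at 813 CPM or below.

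Of the 89 other lysosomal genes tested at 6 months, 30 rose and 3 fell (median 0.42). The largest rises were those of cathepsin E (Ctse, 1.62 ± 0.28), the protease inhibitor Serpinb1a (1.54 ± 0.36) and lysozyme (Lyz2, 1.52 ± 0.33). The falls were those of Cst7 (-1.84 ± 0.27), a cystatin of cytotoxic lymphocytes, the sialate esterase Siae (-1.53 ± 0.17) and the arylsulfatase Arsb (-0.70 ± 0.16). Beside these, 7 of 8 neutrophil markers rose (sum 73.3 to 94.9 CPM in air and 732 to 2411 CPM in silica lungs) and 6 of 7 type 2 cell markers rose (sum 13107 to 15869.7 CPM in air and 23837 to 51322 CPM in silica lungs). Of 9 alveolar macrophage markers 3 rose and 1 fell, and 8 of the 9 had a log2 fold change above 0 (median 1.15). The one that fell was Itgax (469 ± 120 against 110.1 ± 47.4 CPM). The sum of the 9, of which Itgax was a large part in air lungs, was 788 to 899.6 CPM in air and 606 to 798 CPM in silica lungs. The summed level of the 40 members differed between silica lungs: it was 11222, 14081, 16114, 17240.2 and 20951 CPM in the 5 silica lungs and 8451 and 9016 CPM in the 2 air lungs, with library 33 the highest and library 30-31 the lowest of the silica lungs. Library 33 also had the most of the neutrophil markers and library 30-31 the least. The part of these cells in the changes was not tested.

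**Figure D4:**
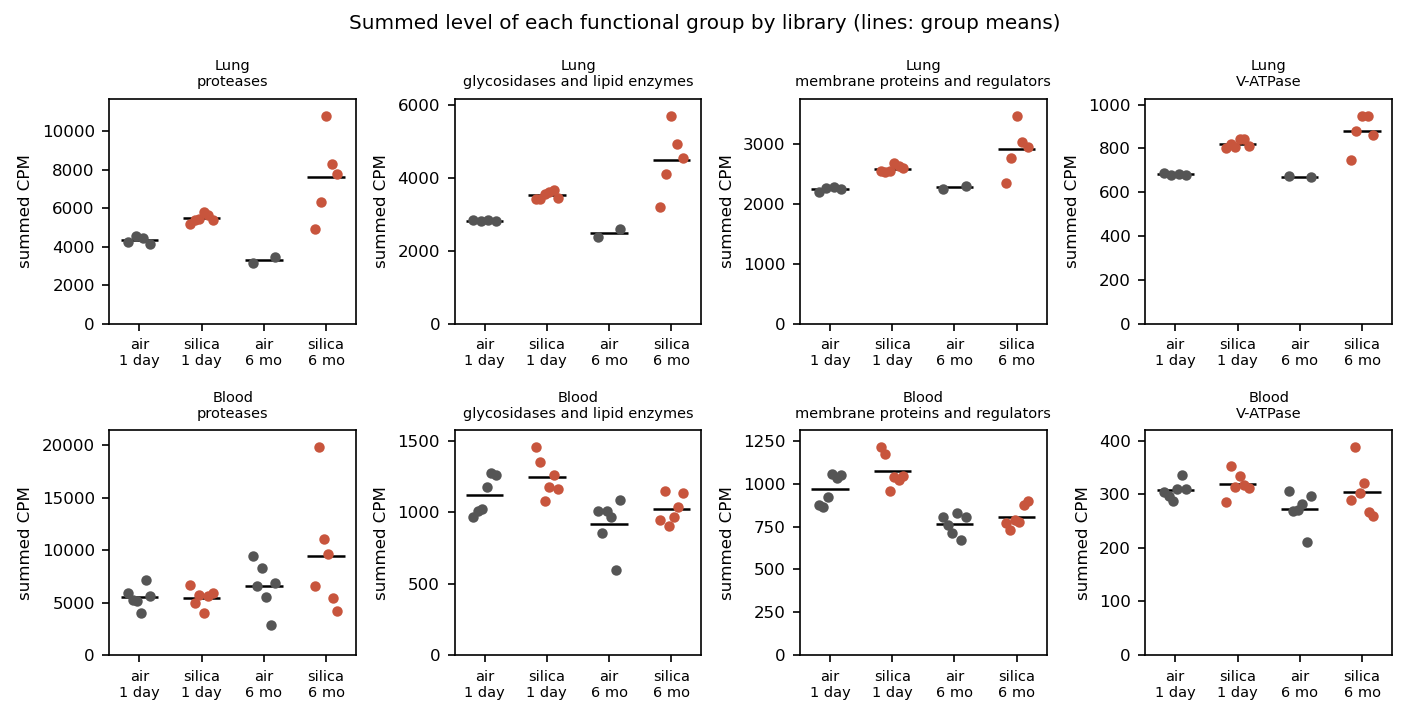
Summed CPM of the proteases, the glycosidases and lipid enzymes, the membrane proteins and regulators, and the V-ATPase subunits in each library (points) with group means (lines), in lung (top) and blood (bottom). In lung every silica library lies above the air libraries of its time in each of the 4 sums, and in blood the groups overlap in each.

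The test of the difference between the times asked whether the lung effect changed. For 18 of the 40 genes the effect was higher at 6 months than at 1 day and for 3 it was lower; over all 16568 genes tested 26.8% were called, 12.2% as higher and 14.6% as lower. The median difference was 0.41 for the 40. The largest 3 were those of Gusb (-1.34 ± 0.17, adjusted p = 0.000146), Ctss (1.27 ± 0.30, adjusted p = 0.00588) and Ctsh (1.2 ± 0.31, adjusted p = 0.00938). By group the effect was higher for 9 of 11 proteases, for 6 of 14 glycosidases and lipid enzymes (Gusb and Manba were lower) and for 3 of 9 membrane proteins (Laptm5 was lower, -0.94 ± 0.16). It differed for 0 of the 6 V-ATPase subunits in edgeR's test, with 0 at an unadjusted p under 0.05 as well. That holds for these 6 only (median 0.01): of the 12 other V-ATPase genes tested, the effect was higher for 2. Their median was 0.25, with 11 of the 12 above 0. For Atp6v0d2 the difference was -0.19 ± 0.39 (adjusted p = 0.759). Whether the 4 groups differ from each other in this was not tested. On 1 scale for all 4 lung groups, each of the 18 genes with a higher late effect had a lower mean in late air than in early air lungs. Asah1, Ctsc and Ctsl were no higher in late than in early silica lungs (192 against 198, 252 against 283 and 242 against 259 CPM). The others of the 18 had a higher mean in late silica lungs. These steps between times were not tested.

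Of the 40, 16 rose at both times. Over all genes tested 7.61% rose at 1 day and 9.52% at 6 months, and the share that rose at both was not counted. The 5 that rose at 6 months without passing at 1 day (Asah1, Cd63, Ctsd, Neu1, Npc1) all had a larger effect at 6 months by the test of the difference. They were sorted by their calls in the same data, which favours a difference. The 7 that rose at 1 day without passing at 6 months (Atp6ap1, Atp6v0d1, Atp6v1a, Atp6v1h, Gaa, Glb1, Hexa) showed 0 differences by that test, so a change of their effect with time was not shown. Pla2g15, the only gene to fall at 1 day, had a higher effect at 6 months by 0.90 ± 0.19 (adjusted p = 0.00369). On 1 scale, Pla2g15 was at 126 ± 10.5, 89.5 ± 5.17, 91.3 ± 8.62 and 121 ± 25.4 CPM in early air, early silica, late air and late silica lungs. Ctsh on this scale was at 671 ± 19.3, 1037 ± 43.9, 490.0 ± 87.8 and 1743 ± 636 CPM, so that the late air lungs were the lowest group and the late silica lungs the highest. Atp6v0d2 was at 5.49 ± 1.12, 18 ± 0.598, 6.34 ± 0.174 and 18.3 ± 7.38 CPM, near the same level in both silica groups. These levels are described and not tested between times. Without air library 19-24 of 6 months, 3 differences of the 40 were called in place of 21, and 1641 of all genes in place of 4437.

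In blood none of the lysosomal genes passed the test at either time. At 1 day 0 of 38 members were called, with edgeR's quasi-likelihood test and with DESeq2 (0% of 11876 genes by edgeR), and 2 had an unadjusted p under 0.05: Ctsh (0.30 ± 0.12) and Grn (0.35 ± 0.15). Of all genes, 430 had an unadjusted p under 0.05. The median log2 fold change of the members was 0.10. At 6 months 0 of 38 were called by either tool (0% of 11615 genes by edgeR), 0 had an unadjusted p under 0.05 (720 of all genes), and DESeq2 called 2 genes, both outside the set. The median was 0.16, but it was -0.08 when libraries were scaled by total counts alone, a scaling that moved the median of all genes to -0.30. So no direction is read from blood. Of the 90 other lysosomal genes, 0 of 85 tested passed at either time, by edgeR.

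In blood 38 of the 40 genes passed the filter on low counts. Ctsb, for example, was at 2446 (lowest), 3629 (median) and 4961 (highest) CPM in air and at 2395 (lowest), 3730.1 (median) and 3971 (highest) CPM in silica bloods at 1 day, and at 2012 (lowest), 4759 (median) and 7047 (highest) CPM in air and at 2757 (lowest), 5831 (median) and 15680.3 (highest) CPM in silica bloods at 6 months. The groups overlapped at both times. The highest of these values, in silica library 31 of 6 months, went with the largest summed level of the set after scaling (22103 CPM; other bloods 4341 to 13031), but that library also has the lowest scaling factor (0.521). As a share of its own counts the set took 1.15% there and more, 1.25%, in silica library 32. At 6 months the summed level of 6 erythroid markers, after globin depletion, was 49207 to 140102 CPM in air and 87735 to 288412 CPM in silica bloods, with the highest value in library 31 too. The 2 genes with the largest rises in lung at 1 day were scarce here: Ctsk was at 0.0965 to 1.21 CPM over both times, and Atp6v0d2 had 0 counts in each of the 24 libraries, which allows up to 0.282 CPM in the shallowest (3 counts, counting error only). Both were left out of the blood test by the filter on low counts. Gusb in the air bloods of 6 months was at 23.9, 24.3, 26.1, 29.3, 31.8 and 78.7 CPM, and the highest value belongs to library 25, which also had the most cytotoxic lymphocyte markers. Gusb alone among the 40 genes was set apart as highest in that library by Dixon's test, and Laptm5 was not. In silica bloods of that time Gusb was at 21.6 to 31.7 CPM, and the difference did not pass (-0.56 ± 0.28, unadjusted p = 0.061, adjusted p = 0.658 by edgeR).

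The tests of blood against lung compared the silica effects of the tissues. At 1 day the effect differed for 1 of the 40 genes, Pla2g15, which was higher in blood by 0.75 ± 0.14 (adjusted p = 0.0232; 0.192% of 16148 genes were called). Pla2g15 was at 8.04 (lowest), 9.03 (median) and 10.3 (highest) CPM in air and at 7.97 (lowest), 11.1 (median) and 13.5 (highest) CPM in silica bloods, where it did not pass (0.23 ± 0.14), while it fell in lung. That call was lost without lung air library 02-07 or 05, without lung silica library 12 or 15 and without blood silica library 18 (adjusted p up to 0.0831). Ctsk (-1.36 ± 0.32) and Cd68 (-0.85 ± 0.21) had larger differences that did not pass. Both passed without blood silica library 11, where calls over all genes rose too, from 31 to 123. Ctsk and Atp6v0d2, near or at 0 in blood, entered the tests of both times by their lung counts. Their differences therefore say little of blood. At 6 months 0 of 40 differences were called by edgeR (1.17% of 16444 genes), and 22 members had an unadjusted p under 0.05, as had 2189 (13.3%) of all genes. Of these 22 members, 21 were lower in blood, Laptm5 being the exception, but the median of all genes was also below 0 (-0.14, with 39.9% of genes positive) beside -0.62 for the members. The largest of the 22 differences were those of Ctsk (-2.07 ± 0.74), which was near 0 in blood, and Cd68 (-1.88 ± 0.48, adjusted p = 0.0597). Blood air library 25 was rich in cytotoxic lymphocyte markers and also had the highest scaling factor of the bloods (1.93, scaled within its time). Without that library 19 of the 40 passed, all lower in blood than in lung, and calls over all genes rose too, from 193 to 1254. Which of its traits matters here was not tested. Without lung silica library 30-31, 6 members and 389 genes passed, and without blood silica library 36, 1 member and 209 genes.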

How the data were processed

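RNA was sequenced from lung and from whole blood (globin mRNA depleted, strand-specific polyA libraries, per the labels' protocols). Per the submitters' processing notes, the build was Rnor_6.0 and the tools were Salmon 1.10.1, STAR 2.6.1d, bcl2fastq 2.19, Trim Galore 0.6.7 and cutadapt 3.4, with no order or role stated. Which gene annotation was used is not given. The authors deposited estimated counts per gene, in 1 table for each tissue and time. Salmon shares reads between similar transcripts, so a gene's value need not be whole: among the 40 genes Tfeb was not whole in 69.6% of samples, Psap in 39.1%, Ctsc in 26.1% and Atp6v1h in 15.2%, and these are the least certain of their own reads. No gene length is given, so levels are not compared between genes.

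Estimated counts were rounded, filtered with filterByExpr (minimum count 10, total 15), scaled by TMM factors (0.950 to 1.03 in lung, 0.521 to 1.93 in blood) and tested in edgeR 4.0.16 (limma 3.58.1, R 4.3.3) with the robust quasi-likelihood F test and Benjamini-Hochberg adjustment over all genes. Fits held the 2 groups of a table, or 4 groups for differences between times or tissues. DESeq2 1.42.0, other scalings, no filter and leaving out each library were alternatives. The code was checked on simulated data. A level of 0 allows 0.123 to 0.224 CPM in lung and 0.171 to 0.282 CPM in blood (3 counts, counting error only). Values named in full are those of the 3 called genes with the largest change in each functional group and lung time, with Atp6v0d1, Tfeb and Mcoln1, and the few others that the comparisons between times, tissues or libraries turn on, which were picked with their values known. The 40 genes, the other lysosomal genes and the cell markers were chosen with earlier results of these data known.

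The rule for near-identical libraries asked that under 10% of genes (mean count at least 20) have p under 0.05 in a chi-square test between 2 libraries of a group, where sampling alone gives 5%. It did not fix how the test is built. After the data were seen, with the 5 pairs of an earlier analysis known, 16 constructions were tried on 111 pairs. The same 5 pairs were lowest in each, at 6.99% to 11.6%, and the next pair was at 20.5% or above. The plain reading, over all genes and without correction, put 1 of the 5 under 10%, and with a continuity correction 3. The construction used here takes only genes with whole counts in both libraries (tolerance 1e-06) and puts all 5 under 10% (7.69% to 9.64%, next pair 21.3%). It is 1 of 2 constructions that do so, and the effect of the plain readings is given with the other alternatives.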

Additional observations from a re-analysis of the deposited data

Results flagged for a closer look

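One library stood far from the others of its group, by Dixon's test at the 95% level, in 39 of 276 combinations of gene and group, where chance gives about 5 in 100. Of these, 30 belong to 3 bloods: silica 11 of 1 day, air 25 and silica 31 of 6 months. In the air bloods of 1 day, library 09 was the lowest for Neu1 (12.4 CPM). In the silica bloods of 1 day, library 11 was the highest for Atp6v0d1 (140.0 CPM), Ctsd (2188 CPM), Gaa (32.9 CPM), Grn (402 CPM), Hexa (147 CPM), Neu1 (30.9 CPM), Sgsh (9.58 CPM), Tfeb (44.1 CPM) and Tpp1 (62.2 CPM). In the silica bloods of 1 day, library 11 was the lowest for Asah1 (7.19 CPM), Atp6v1a (12.4 CPM), Atp6v1h (8.82 CPM), Ctsl (3.27 CPM), Gla (9.36 CPM), Lamp2 (26.2 CPM) and Manba (9.8 CPM). In the air bloods of 6 months, library 25 was the highest for Gusb (78.7 CPM). In the air bloods of 6 months, library 25 was the lowest for Asah1 (23.1 CPM), Ctsa (59.1 CPM), Ctsh (46.3 CPM), Ctsl (3.99 CPM), Grn (71.7 CPM), Lamp2 (57.1 CPM), Lgmn (21.6 CPM), Neu1 (5.08 CPM) and Npc2 (19 CPM). That library had a scaling factor of 1.93 (other air bloods of its time 0.902 to 1.09), which lowers all its scaled values. As a share of its own counts the set took 0.836% there, inside the range of its group (0.828% to 1.07%). The part of the scaling in these low values was not tested. In the silica bloods of 6 months, library 31 was the highest for Atp6v0d1 (204 CPM), Ctsk (1.21 CPM), Hexa (299.6 CPM) and Lgmn (78.7 CPM). Its scaling factor, 0.521, was the lowest of the bloods and raises all its scaled values. The part of the scaling in these high values was not tested either. In the silica bloods of 6 months, library 36 was the highest for Gusb (31.7 CPM) and Pla2g15 (9.82 CPM). In the air lungs of 1 day, library 05 was the highest for Atp6v1h (62.5 CPM). In the air lungs of 1 day, library 05 was the lowest for Atp6v1b2 (117 CPM). In the air lungs of 1 day, library 06 was the highest for Tpp1 (160.4 CPM). In the silica lungs of 1 day, library 10 was the lowest for Npc2 (953 CPM). In the silica lungs of 6 months, library 30-31 was the lowest for Lipa (187 CPM). In the silica lungs of 6 months, library 33 was the highest for Ctsl (287 CPM).

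The lung effect of silica differed between the times for 21 genes by edgeR's quasi-likelihood test of the difference. On the log2 scale it was higher at 6 months for Ctss (1.27), Ctsh (1.2), Cd63 (1.14), Lgmn (1.1), Ctsz (0.95), Pla2g15 (0.90), Npc2 (0.89), Ctsd (0.84), Ctsb (0.73), Neu1 (0.70), Ctsa (0.62), Npc1 (0.59), Asah1 (0.48), Psap (0.45), Ctsl (0.42), Lamp1 (0.40), Ctsc (0.31) and Lamp2 (0.31). It was lower at 6 months for Gusb (-1.34), Laptm5 (-0.94) and Manba (-0.26). At 1 day the effect of silica was higher in blood than in lung for Pla2g15, by 0.75.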

How the results depend on the processing

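In lung at 1 day, 22 to 27 members were called under other scalings, tests and filters, apart from the fit with all 4 lung groups (8, with 594 of all genes against 1836). Leaving out 1 library gave 20 to 25, and 20 of the 24 calls held in each such fit. At 6 months these other settings gave 23 to 32, and all 23 calls held in them, but leaving out 1 library gave 0 to 27, and 0 of the 23 calls held in every such fit. For the difference between lung times, leaving out 1 library gave 3 to 28. The effects in blood and lung differed for 0 to 3 members at 1 day and 0 to 19 at 6 months when 1 library was left out. With every library kept separate, 7 differed at 6 months, all lower in blood (Ctsh, Ctss, Ctsz, Lgmn, Gaa, Npc2, Cd68). In blood alone 0 were called in every setting run. The plain readings of the rule for near-identical libraries, added after seeing the data, gave 25 and 25 members at 1 day, 31 and 29 at 6 months, 23 and 27 for the lung times, 1 and 1 for blood against lung at 1 day, and 7 and 7 at 6 months. Over all genes they gave 6396 and 5491 at 6 months in lung (3190 as averaged here, 6396 with every library separate, 6501 with all 4 lung groups in the fit), and 797 and 711 against 193 for blood against lung. No called gene changed direction. The median of the members turned in 1 case, blood at 6 months, from 0.16 to -0.08 with total counts alone. The cause of these moves was not tested. A fit with the title number as a replicate block across tissues, over 5 air and 4 silica numbers at 1 day and 3 and 5 at 6 months, called 0 members at both times. It called only 4 of all genes at each time, against 31 and 193 in the main fits. Same-numbered lung and blood samples correlated at -0.0423 to 0.178 in their deviations from their group means. Tissues of 1 animal need not correlate in this way, so these values cannot show whether equal numbers mark 1 animal. The labels do not say so either, and the main tests took no pairs. Depth (10.6 M counts or more) limits only Ctsk and Atp6v0d2 in blood.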

Other observations

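Other cell markers in the same lungs give the surroundings of the lysosomal genes. At 6 months 4 of 6 T cell markers rose and 1, Cd8a, fell, and all 3 B cell markers tested rose (median 2.37), while at 1 day 0 of 6 T cell and 0 of 5 B cell markers passed in edgeR's test. Of 6 monocyte markers 3 rose at each time (medians 0.33 and 0.48). At 1 day 3 of 5 type 1 cell markers and 3 of 5 endothelial markers fell, and at 6 months 1 of 5 type 1 cell markers rose and 0 of 5 endothelial markers passed. The osteoclast gene Oscar rose at both times, from 5.19 ± 0.381 to 7.16 ± 0.931 CPM at 1 day (SD, n = 4 and 6) and from 2.31 ± 0.334 to 8.51 ± 1.88 CPM at 6 months (n = 2 and 5). Of the 12 other V-ATPase genes tested, 6 rose at 1 day and 2, Atp6v0a1 and Tcirg1, at 6 months.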
